A study of Mus musculus with 2 samples.

Results

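The Mir29 family (Mir29a, Mir29b-1, Mir29b-2 and Mir29c) and the Mir101 family (Mir101a and Mir101b) were examined in small RNA libraries of embryonic mouse hindbrain. The members were taken by name, 6 of the 1973 microRNA loci counted in the deposited tables, and all 6 had a row and counts in both libraries. The tissue was hindbrain of B6NCrl mice at embryonic day 14.5, untreated and with no engineered allele named in the labels, and the RNA was shorter than 30 nucleotides, the size class of mature microRNAs. There was 1 group with 2 libraries, replicate 1 collected on 24 July and replicate 2 on 30 July. The labels number them as biological replicates and describe each as 1 hindbrain of 1 pup, yet also as pooled sexes with a donor label that both share. The labels thus do not settle whether separate animals were used. Every SD here is the spread of these 2 samples alone, and every p-value speaks of a difference between these 2 samples alone. No postnatal library was analysed here, so the rise for which the families are known was not measured, and the values below are their levels at 1 embryonic age.

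A microRNA is cut from a hairpin and guides a silencing complex to messenger RNAs, mostly by pairing of its seed, bases 2 to 8, with the 3′ UTR. Members of the Mir29 family are known to be low in the embryonic brain and to rise as neurons mature, and their known targets include the de novo DNA methyltransferases Dnmt3a and Dnmt3b and the Tet demethylation enzymes. The Mir101 family is known for targeting Ezh2, the methyltransferase subunit of Polycomb repressive complex 2.

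The mature 3′ arms are the strands for which both families are known. They are shown with the seed in capitals because the seed guides pairing and near-identity decides which reads can be assigned to a locus. They are RefSeq sequences (GRCm38.p6), and all 6 RefSeq hairpins were identical to the GENCODE ones.
miR-29a-3p: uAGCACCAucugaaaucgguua
miR-29c-3p: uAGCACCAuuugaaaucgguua
miR-29b-3p: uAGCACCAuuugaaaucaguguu
miR-101a-3p: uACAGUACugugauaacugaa
miR-101b-3p: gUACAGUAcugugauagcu

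All Mir29 arms shared 1 seed, which no mature microRNA outside the family carried in the RefSeq table. Counted from the 5′ end of miR-29a-3p, miR-29c-3p differs from it only by C10U. From miR-29c-3p to miR-29b-3p the differences over the shared length were G18A, U21G and A22U, all outside the seed. The annotated 5′ end of miR-101b-3p lies 1 base before that of miR-101a-3p, so bases 2 to 8 differ between the 2 arms although their shared stretch is the same. No other mature microRNA of the table had either Mir101 seed.

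The hairpins of Mir29b-1 and Mir29b-2 both encode miR-29b-3p without a difference, while each of the other 3′ arms had at least 1 mismatch to every other hairpin of the GENCODE annotation. Copies outside annotated hairpins were not sought, because no genome sequence was used here. A read of miR-29b-3p thus maps to more than 1 position, and multimapping reads were not assigned to loci in the deposited tables. Of all reads, 33.9% were multimapping in the first library and 34.3% in the other. The 5′ arms of the 2 hairpins, shown because they are the stretches that separate the loci, differ from the other hairpin by 2 mismatches each.
miR-29b-1-5p: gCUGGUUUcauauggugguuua
miR-29b-2-5p: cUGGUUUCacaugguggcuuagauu

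The counts of Mir29b-1 and Mir29b-2 therefore leave out any read that lies wholly within the sequence they share. How much of the multimapping pool was miR-29b-3p was not tested. The longest run common to the 2 Mir101 hairpins was 20 bases, in capitals here to show where reads of the loci cannot be told apart.
Mir101a: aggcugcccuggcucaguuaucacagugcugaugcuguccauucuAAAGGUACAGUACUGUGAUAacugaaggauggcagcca
Mir101b: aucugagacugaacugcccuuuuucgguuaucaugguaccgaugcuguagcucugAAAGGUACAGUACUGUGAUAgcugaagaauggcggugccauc

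The run ends at base 15 of miR-101a-3p, and the base after it differs as A16G, counted from the 5′ end of miR-101a-3p and read into the Mir101b hairpin. A related locus, Mir101c, had 0 rows in the tables and was not analysed here. Its mature sequence, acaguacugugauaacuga, is the same as bases 2 to 20 of miR-101a-3p. Whether reads of Mir101a were left unassigned for this, which would lower its level and raise the fold of Mir101b over it, was not tested.

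The Mir29 loci form 2 genomic pairs. Mir29a (ENSMUSG00000065610) lies on chromosome 6 at 31062660 to 31062747 (GRCm38, minus strand), outside annotated genes. Mir29b-1 (ENSMUSG00000065604) lies 275 bases away at 31063023 to 31063093, and its end overlaps the exon of the long non-coding RNA Gm27019. Mir29b-2 (ENSMUSG00000065412) lies on chromosome 1 at 195037040 to 195037120 (plus strand), with Mir29c (ENSMUSG00000065548) 426 bases further at 195037547 to 195037634. Both lie in an exon of a retained-intron transcript of the non-coding gene A330023F24Rik, and opposite to an exon of Cd46, a complement regulator. Mir101a (ENSMUSG00000065451) lies on chromosome 4 at 101346945 to 101347027 (minus strand) in an exon of the long non-coding RNA E130102H24Rik. Mir101b (ENSMUSG00000065556) lies on chromosome 19 at 29135279 to 29135375 (plus strand) in an intron of Rcl1, a gene of ribosomal RNA processing. These positions are those of annotation release M21. The identifier versions of Mir29b-1 and Mir29b-2 in the tables were older (1 against 2, and 2 against 3), so the intervals counted for them may differ from those given.

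Replicate 1 held 5826676 counts on the gene strand of microRNA loci and replicate 2 held 6667238. Levels are given as CPM, the gene-strand count of a locus per 1000000 such counts, and a locus with 0 counts could have up to 0.515 CPM (replicate 1) or 0.450 CPM (replicate 2), which is 3 counts. A read of this size class covers a mature strand whole, so levels of different loci were not divided by length, but capture bias between sequences was not measured. Intervals and floors cover counting error only. Neural marker microRNAs summed to 14835 and 16761 CPM (replicates 1 and 2), with 0 of the 9 measured members at 0. Those of vessels and mesenchyme summed to 42758 and 48364 CPM (0 of 7 at 0), those of blood to 587 and 740 CPM (0 of 5 at 0), and those of muscle to 14.9 and 16.3 CPM, with Mir1a-1 and Mir133a-1 of 4 at 0 in both libraries. Most of the neural sum was Mir137 (mean 10171 CPM), and most of the vascular and mesenchymal sum was Mir126a (34235 CPM). The numbered copies Mir124a-1, Mir124a-2 and Mir124a-3 had means of 7.75, 3.13 and 1.03 CPM. Mir9-2 had 1.52 CPM, Mir9-3 had 516 CPM, and Mir9-1 had no row. Multimapping reads are in none of these values, so the sums do not compare cell types.

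Mir101b was the most abundant member and Mir101a followed. Mir101b had 1857 CPM in replicate 1 (10818 counts, 95% Poisson interval 1822 to 1892) and 1969 CPM in replicate 2 (13130 counts, 1936 to 2003). Mir101a had 605 CPM in replicate 1 (3528 counts, 586 to 626) and 707 CPM in replicate 2 (4713 counts, 687 to 727). Replicate 2 was the higher library for both loci, and the levels of the 2 loci did not overlap. The means were 1913 ± 79.7 CPM for Mir101b and 656 ± 71.7 CPM for Mir101a (SD, n = 2), 2.92-fold apart.

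Mir29c and Mir29a stood next. Mir29c had 164 CPM in replicate 1 (956 counts, 154 to 175) and 196 CPM in replicate 2 (1305 counts, 185 to 207). Mir29a had 141 CPM in replicate 1 (824 counts, 132 to 151) and 173 CPM in replicate 2 (1152 counts, 163 to 183). Mir29c was above Mir29a within each library, by 1.16-fold and 1.13-fold, and their Poisson intervals did not overlap there. The difference was smaller than that between libraries, so the ranges of the 2 loci over both libraries overlapped. The means were 180 ± 22.4 CPM for Mir29c and 157 ± 22.2 CPM for Mir29a (SD, n = 2). Both lay below Mir101a, which was 3.65-fold above Mir29c on the means, without overlap.

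Mir29b-1 and Mir29b-2, the loci that share their 3′ arm, were near the detection limit in assigned reads. Mir29b-1 had 2.40 CPM in replicate 1 (14 counts, 1.31 to 4.03) and 1.95 CPM in replicate 2 (13 counts, 1.04 to 3.33). Mir29b-2 had 0.687 CPM in replicate 1 (4 counts, 0.187 to 1.76) and 2.85 CPM in replicate 2 (19 counts, 1.72 to 4.45). Which of the 2 was higher changed with the library, and the intervals overlapped in each. Their means were 2.18 ± 0.320 and 1.77 ± 1.53 CPM (SD, n = 2).

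**Figure D1:**
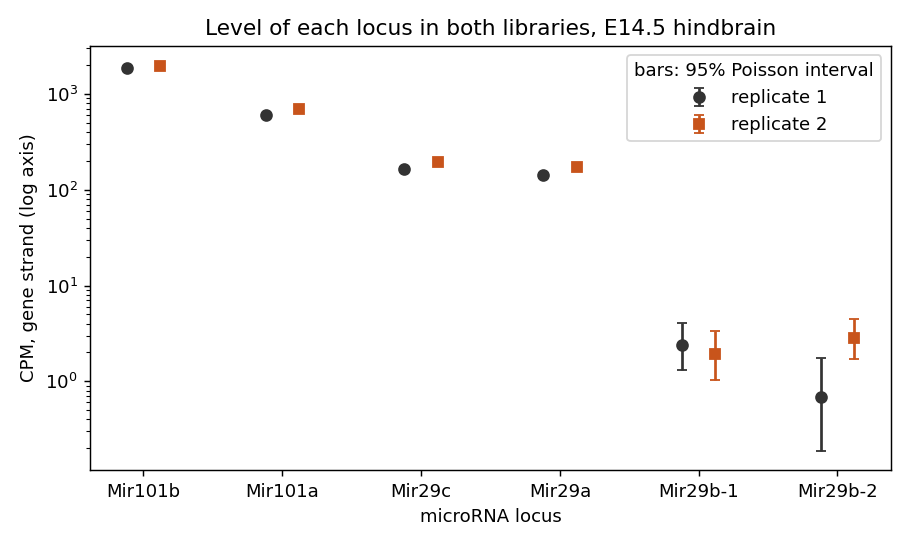
CPM of the 6 loci on a log axis, circles for replicate 1 and squares for replicate 2, with 95% Poisson intervals (hidden behind the symbols for the 4 upper loci). The loci span from 1969 CPM for Mir101b down to 0.687 CPM for Mir29b-2, and among neighbours the ranges over both libraries overlap for Mir29c and Mir29a and for Mir29b-1 and Mir29b-2.

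Among the 1973 loci, of which 743 had a count in either library, Mir101b ranked 77 by mean CPM and Mir101a 110. Mir29c ranked 182, Mir29a 192, Mir29b-1 393 and Mir29b-2 405. The 4 upper members were thus above the median of 45.6 CPM of the 498 loci whose counts summed to 10 or more, and the 2 Mir29b loci below it. Levels closest to Mir101b were those of Mir708 (2035 CPM, 0.09 above it in mean log2(CPM + 1) over 2 libraries) and Mir433 of the Dlk1-Dio3 cluster (1826 CPM, -0.07). For Mir101a they were Mir340 (652 CPM, -0.01) and the epithelial microRNA Mir203 (648 CPM, -0.01). For Mir29c they were Mir221 (184 CPM, 0.04) and Mir500 (174 CPM, -0.04), and for Mir29a Mir219a-1, a copy of the oligodendrocyte microRNA miR-219a (158 CPM, 0.02), and Mir410 (160 CPM, 0.02). For Mir29b-1 they were Mir19b-2 and Mir7658 (2.22 CPM each, 0.02), and for Mir29b-2 Mir7075 (1.53 CPM) and the multi-copy Mir9-2 (1.52 CPM, both -0.01). These likenesses are of level alone. The levels leave out multimapping reads, also for numbered copies such as Mir19b-2 and Mir219a-1.

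**Figure D2:**
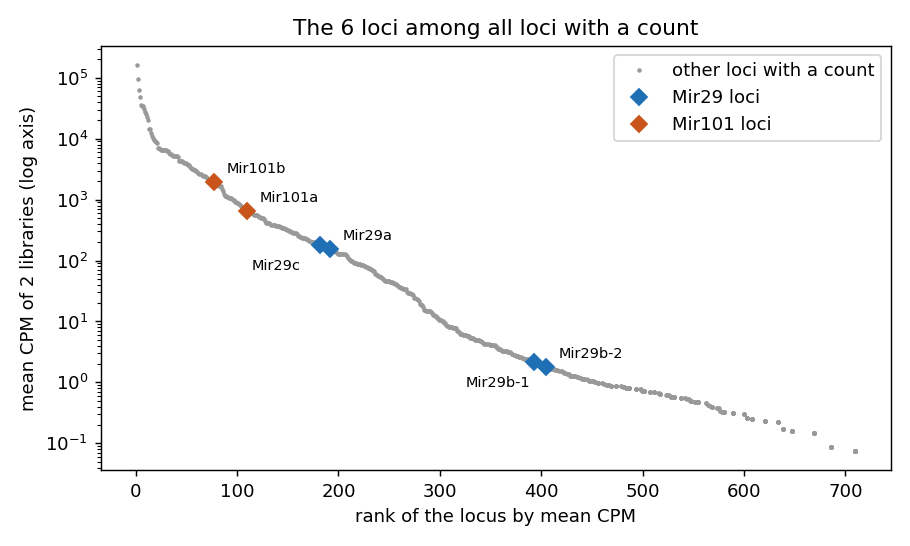
Mean CPM of 2 libraries (log axis) against rank for all loci with a count, with Mir29 loci as blue and Mir101 loci as orange diamonds. Mir101b and Mir101a stand at ranks 77 and 110, Mir29c and Mir29a at 182 and 192, and the 2 Mir29b loci at 393 and 405.

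Summed over loci, the Mir101 family had 2462 and 2676 CPM (replicates 1 and 2), and the Mir29 family 309 and 373 CPM. As shares of all microRNA counts these were 0.246% (95% Clopper-Pearson interval 0.242 to 0.250) and 0.268% (0.264 to 0.272) for Mir101, and 0.0309% (0.0294 to 0.0323) and 0.0373% (0.0359 to 0.0388) for Mir29. The Mir101 sum was 7.98-fold the Mir29 sum in replicate 1 and 7.17-fold in replicate 2. Since miR-29b-3p reads map to both of its loci, the Mir29 sums leave such reads out, and the fold between the families is that of assigned reads.

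Within the Mir29 family, Mir29c held 53.2% of the counts of replicate 1 (50.8 to 55.5, by the same method) and 52.4% of those of replicate 2 (50.4 to 54.4). The 2 Mir29b loci together held 1.00% (0.594 to 1.58) and 1.29% (0.881 to 1.81). In the genomic pairs, Mir29a held 98.3% of the counts of Mir29a and Mir29b-1 in replicate 1 and 98.9% in replicate 2. Mir29c held 99.6% and 98.6% of the counts of Mir29c and Mir29b-2. For each of these shares the intervals of the 2 libraries overlapped. The Mir29 shares are of assigned reads and leave out miR-29b-3p reads that map to both Mir29b loci. They thus do not give the share of mature miR-29b. In the Mir101 family, Mir101b held 75.4% of counts in replicate 1 (74.7 to 76.1) and 73.6% in replicate 2 (72.9 to 74.2), and here the intervals of the 2 libraries did not overlap.

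The libraries were compared after TMM scaling, which allows for a difference in composition, by a two-sided exact binomial test for each of those 498 loci with Benjamini-Hochberg adjustment over all of them. The test asks whether 2 libraries differ beyond counting error and compares no conditions. It called 4 of the 6 members higher in replicate 2, 0 lower and 2 not. Of all loci tested 32.5% were called, 17.5% higher and 15.1% lower. The balance depended on the scaling, with 87 loci higher and 75 lower here, 114 and 59 with library totals, and 80 and 88 with DESeq2 size factors. Calls become easier with depth, and Mir29a, Mir29c, Mir101a and Mir101b have over 1000 counts each. Of the 226 loci at that depth 62.4% were called, 33.6% higher and 28.8% lower, and of those 4 members 3 were called, all higher.

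Ratios of replicate 2 over replicate 1 are given on the log2 scale, with 0.5 added to both counts. The ratio was 0.25 for Mir29a (exact 95% interval 0.12 to 0.38, adjusted p = 0.000738 by the exact binomial test), a fold of 1.19. For Mir29c, from the other genomic pair, it was 0.21 (0.09 to 0.33, adjusted p = 0.00227 by the same exact test), and the intervals of these 2 loci overlapped over most of their length. Mir101a had 0.18 (0.12 to 0.24, adjusted p = 1.08e-07, exact test). Mir101b had 0.04 (0.01 to 0.08, adjusted p = 0.0677, exact test) and was not called. The intervals of Mir101a and Mir101b did not overlap, and Mir101b has the larger count. Under library totals alone, without TMM, all ratios move up by 0.04, and there Mir101b was 0.085 and was called.

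Mir29b-2 had a log2 ratio of 1.88 (0.42 to 4.03, adjusted p = 0.0196, exact test) from 4 and 19 counts, and with 5 added to each count it was 1.18. Mir29b-1 had -0.34 (-1.55 to 0.85, adjusted p = 0.767, exact test), an interval that also holds the values of Mir29a and Mir29c. The family sums had ratios of 0.23 for Mir29 (0.14 to 0.32) and 0.08 for Mir101 (0.05 to 0.11), again without overlap of the intervals.

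When edgeR's common dispersion between the libraries, a coefficient of variation of 10.8%, was allowed for, 0 of the 6 members were called (1 at an unadjusted p under 0.05, Mir29b-2), against 4 with the binomial test. By that test 1.41% of loci were called, 0.803% higher and 0.602% lower. The ratios of 4 members thus passed a test of counting error and did not pass one that allows for the general spread between these libraries. Summed neural, vascular and blood markers were also higher in replicate 2, though not every marker. By the binomial test, 4 of 9 neural markers tested were higher and 1 lower (Mir9-3, log2 ratio -0.10). Of 6 vascular and mesenchymal ones 3 were higher and 1 lower (Mir214, -0.30). Of 5 blood markers 3 were higher and 0 lower, with -0.47 for Mir486, which was not called. These counts stand beside 17.5% higher and 15.1% lower of all loci tested, or 33.6% and 28.8% of loci with at least 1000 counts. With the common dispersion, 0 neural, 0 vascular and mesenchymal and 1 blood marker were called. The red cell microRNA Mir144 had 1.10 and was also called by edgeR's exact test with the common dispersion (adjusted p = 0.00834). Collection day coincides with replicate. The part of these in the ratios of the members was not tested, and in whole tissue fewer cells of a type and less RNA per cell cannot be told apart.

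**Figure D3:**
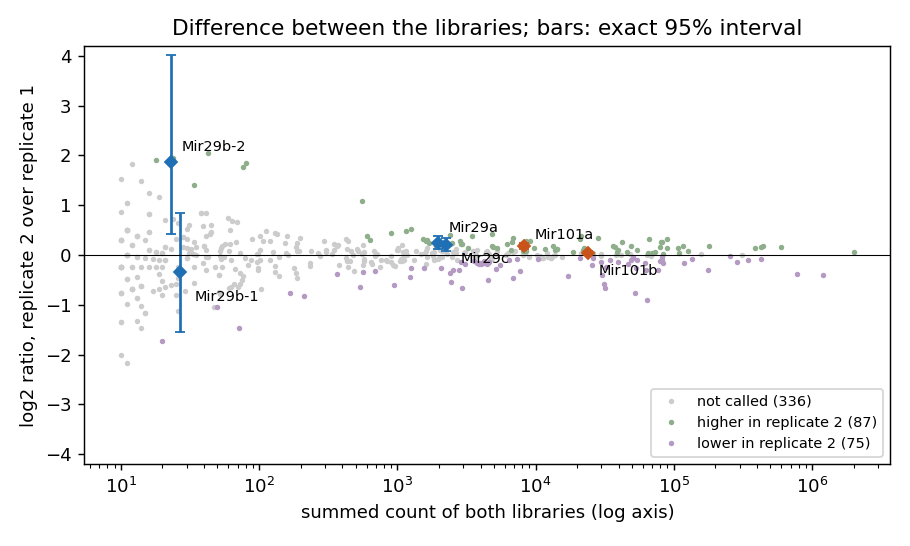
Log2 ratio of replicate 2 over replicate 1 against the summed count (log axis) for the 498 loci tested, grey where not called, green where higher and purple where lower, with the 6 members as diamonds and their exact 95% intervals. Mir29a, Mir29c and Mir101a lie between 0.18 and 0.25, Mir101b at 0.04, and the 2 Mir29b loci have wide intervals from 27 counts or fewer.

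The 10 loci of other microRNAs reported to target Ezh2 had a median of 125 CPM. Their sum was much above that of the 2 Mir101 loci, with 15895 and 16378 CPM (replicates 1 and 2). Most of this was Mir26b with 10866 ± 166 CPM, followed by Mir98 of the let-7 family with 3384 ± 490 CPM, Mir138-1 with 1064 ± 16.6 CPM and Mir138-2 with 552 ± 26.5 CPM (SD, n = 2). The numbered copies Mir26a-1 and Mir26a-2 had means of 8.14 and 26.8 CPM, and the Mir124a loci at most 7.75 CPM. These levels, and the order within the list, leave out multimapping reads. How many of those reads were of miR-26a or miR-124 was not tested. Of 10 members tested 1 was higher in replicate 2 (Mir98, log2 ratio 0.25), 2 were lower (Mir26b, -0.07, and Mir214, -0.30) and 7 were not called, with a median ratio of 0.03 beside 0.01 over all loci tested. The counts of this list and of the next 3 stand beside the 17.5% higher and 15.1% lower of all loci, or 33.6% and 28.8% of those with over 1000 counts. Other microRNAs reported to target DNA methyltransferases summed to 12950 and 13357 CPM. They were led by Mir143 of smooth muscle with 6635 ± 229 CPM, Mir342 with 5478 ± 76.6 CPM, Mir185 with 443 ± 33.6 CPM and Mir148b with 289 ± 4.53 CPM (SD, n = 2). Of these 6, Mir143 (0.03) and Mir148a (0.14) were higher in replicate 2, Mir185 (-0.20) was lower and 3 were not called, with a median of -0.04. With DESeq2 size factors 1 was higher and 2 were lower.

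Other microRNAs known to rise in postnatal brain summed to 22340 and 22485 CPM. Beside Mir26b, the leading members were Mir139 with 3047 ± 69.0 CPM, the oligodendrocyte microRNA Mir219a-2 with 2618 ± 252 CPM and the neuronal Mir128-1 with 1781 ± 169 CPM (SD, n = 2). Mir219a-2 and Mir128-1 are numbered copies, and their levels are of the locus without multimapping reads. Of 12 tested 4 were higher in replicate 2, 2 were lower and 6 were not called, with a median ratio of 0.05. Mir128-1 had 0.15, Mir219a-2 -0.24 and Mir139, not called, 0.00. The members' own median was 0.20 over 6 loci, a value without a test, because the members were chosen with results of these data known. Of 8 measured microRNAs of proliferating embryonic cells 0 were higher, 5 were lower and 3 were not called, with a median of -0.15. Called in all were 5 of these 8, of which 6 have over 1000 counts, beside 62.4% of loci at that depth. Mir17, the most abundant of them, had 14344 ± 1749 CPM (SD, n = 2) and a ratio of -0.29. They summed to 35877 and 31063 CPM, beside 2771 and 3049 CPM for the 6 members. With edgeR's common dispersion, each of these 4 lists had 0 calls and 0 loci at an unadjusted p under 0.05.

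**Figure D4:**
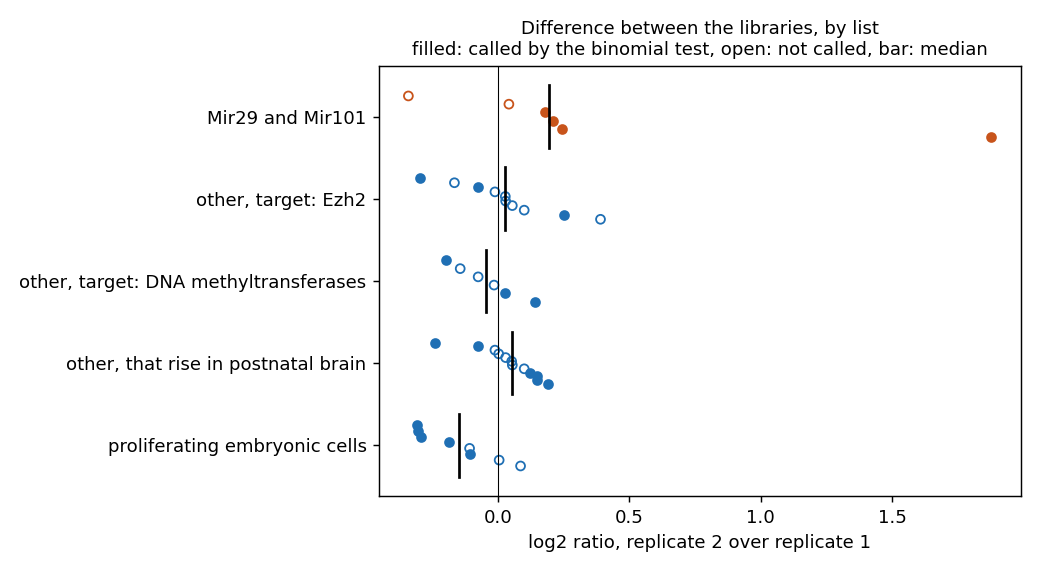
Log2 ratio of replicate 2 over replicate 1 for each tested locus (point) of the 6 members and the 4 other lists, filled where called by the exact binomial test, with the list median as a bar. Medians are 0.20 for the members and -0.15 for microRNAs of proliferating cells, and lists share some loci.

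Matches to the seeds in 3′ UTRs were searched as letters, because the libraries hold no messenger RNA. The searched motifs were TGGTGCT for miR-29, GTACTGT for miR-101a and TACTGTA for miR-101b, on the transcript strand, in the longest annotated 3′ UTR of each of 21020 genes (GENCODE M21). The 2 Mir101 motifs share TACTGT, so a site GTACTGTA holds both. Of all these 3′ UTRs, of a median length of 961 bases, 13.1% held the miR-29 motif, 9.39% that of miR-101a and 12.2% that of miR-101b. Beside the matches of a gene stands the share of 3′ UTRs within 20% of its length that hold the motif at all. The share holding it as often as the gene was not counted. The genes were chosen as the DNA methylation and Polycomb enzymes, among them known targets.

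The 3′ UTR of Dnmt3a, a de novo methyltransferase, held 5 miR-29 matches in 6696 bases, where 46.1% of 495 3′ UTRs of like length held at least 1. That of Dnmt3b, the other de novo enzyme, held 1 in 1331 bases (12% of 2816), and that of the maintenance enzyme Dnmt1 held 0 in 312 bases (3.53% of 1699). Tet1 held 7, Tet2 5 and Tet3 8, in long 3′ UTRs of which 51.5%, 26.4% and 42.4% of like length held at least 1. The glycosylase gene Tdg held 3 (18.7%). Motifs of miR-101 were present in this group too. Dnmt3a held 1 for miR-101a (36.6%) and 2 for miR-101b (46.3%), and Tet2 held 1 (18.5%) and 3 (24.7%). Tet1 held 2 (53.2%) and Tet3 1 (40.4%) for miR-101b, with 0 for miR-101a, and Dnmt1, Dnmt3b and Tdg held 0 of either. The first 2 of the 5 matches of Dnmt3a and that of Dnmt3b are shown with the motif in capitals, as examples from the known de novo methyltransferase targets. Which of the matches act as sites was not tested.
Dnmt3a chr12:3908557-3908586 (+): atcccgacttcataaTGGTGCTttcaaaac
Dnmt3a chr12:3908984-3909013 (+): acatacaaaatgtacTGGTGCTttctgtct
Dnmt3b chr2:153686612-153686641 (+): tagagtagcccggcaTGGTGCTcatgttct

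The short 3′ UTR of Ezh2, of 402 bases, held 2 miR-101a matches and 1 miR-101b match, where 2.73% and 2.67% of 1797 3′ UTRs of like length held at least 1. That of Eed, another core Polycomb subunit, held 1 miR-101a match in 410 bases (2.92% of 1817) and 0 for miR-101b. For miR-29, Ezh2 and Eed held 0 (4.06% and 4.29%), and Jarid2, an accessory subunit, held 1 (14.3%) with 0 for miR-101. Suz12 held 0 of the 3 motifs, where 16.7%, 13% and 16% of like length held that of miR-29, miR-101a and miR-101b, and Ezh1 held 0, where 16.1%, 11.6% and 15.7% did. The Ezh2 sites and that of Eed are shown with the miR-101a motif in capitals. In the second of Ezh2 the motif is followed by a, which makes the overlapping miR-101b match.
Ezh2 chr6:47530468-47530497 (-): cttcaggaaccttgaGTACTGTgggcaatt
Ezh2 chr6:47530413-47530442 (-): ttctgaatttgcaaaGTACTGTaacagtaa
Eed chr7:89954771-89954800 (-): ttgtttacattctttGTACTGTcttcctgc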

How the data were processed

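Small RNA was counted in 2 libraries of embryonic day 14.5 mouse hindbrain. The authors deposited 1 table per library with the raw count of each microRNA locus, on both strands and on either one, without normalization. Per the lists of files deposited with them, the tables use mm10 and annotation M4. The name of neither the aligner nor the counter was given in the sources used here. The strand column with 98.0% and 97.8% of counts was taken as the gene strand, and unassigned reads, in 4 rows of their own, did not enter the library sizes. Symbols and positions came from GENCODE M21, matched for 1894 of 1973 identifiers, and microRNA sequences from RefSeq (GRCm38.p6).

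Counts were scaled by TMM (factors 0.985 and 1.01), and 498 loci whose counts summed to 10 or more were tested by the exact two-sided binomial test. With 1 group of 2 libraries a quasi-likelihood fit cannot be tested, so edgeR's exact test with the common dispersion was the alternative to the binomial test. That dispersion was estimated from both libraries as 1 group, so real differences enlarge it. Calls used an adjusted p under 0.05. A locus was named as nearest in level where it shared no run of 20 bases with the member, 2 per member, and up to 4 leading members of each list were named. Members and lists were chosen with earlier results of these data known. The scripts were tested on simulated data. Other alternatives were the denominator, the strand, the scaling, the filter, the pseudocount, summed copies and leaving out each replicate. The set of loci with at least 1000 counts was added after the data were seen. Mir148a, Mir214, Mir9-3, Mir486, Mir144, Mir137, Mir126a, Mir9-2 as a marker, and the Mir124a and Mir26a loci were named after their values were seen. The software was Python 3.11.15, scipy 1.17.1, R 4.3.3, edgeR 4.0.16 and DESeq2 1.42.0.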

Additional observations from a re-analysis of the deposited data

How the results depend on the processing

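With edgeR's common dispersion the log2 ratios were 0.25 for Mir29a, 0.21 for Mir29c, 0.18 for Mir101a and 1.89 for Mir29b-2, none of them called, with 0 members, 4 higher and 3 lower loci called in all. In the 4 lists of target and stage it called 0 in each direction. Mir101b was called with library totals (0.085) and without a filter on low counts (0.050). Over scaling, strand, filter and pseudocount, the ratio lay between 0.23 and 0.29 for Mir29a, 0.19 and 0.25 for Mir29c, 0.16 and 0.22 for Mir101a, 0.03 and 0.09 for Mir101b, -0.36 and -0.30 for Mir29b-1, and 1.18 and 1.92 for Mir29b-2, so no direction turned. With library totals 2 of the other Ezh2 microRNAs were higher. With DESeq2 size factors, upper quartile scaling or a summed count of at least 100, 1 of the microRNAs reported to target DNA methyltransferases was higher and 2 were lower. Per 1000000 reads of any kind, in place of counts on loci, the Mir29 family had 163 and the Mir101 family 1229. Without one replicate or the other, the level of Mir29b-2 was 0.687 or 2.85 CPM beside a mean of 1.77. With the counts of both strands no level or share moved by more than 1 SD. Higher and lower loci numbered 82 and 87 with upper quartile scaling and 78 and 84 at a summed count of at least 100. Summing loci that share 20 bases joins Mir29b-1, Mir29b-2 and Mir29c (184 CPM) and the 2 Mir101 loci (2569 CPM). No paired analysis was possible because there was 1 group. The 2 Mir29b loci had at most 19 counts in a library, and reads of miR-29b-3p that map to both loci are not among them.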
